A study of Mus musculus with 10 samples.

Results

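The 10 genes described here, Gfap, Vim, Serpina3n, Lcn2, Steap4, Cd44, Osmr, S1pr3, Aspg and Hspb1, are markers of reactive astrocytes, and each was found by its exact symbol among the 24391 gene names of the count data. Astrocytes are the glial cells that feed neurons, clear neurotransmitter and potassium and wrap brain vessels with their endfeet. After injury they enlarge, make more intermediate filament protein and secrete acute-phase proteins, a state called reactive astrogliosis, for which these genes are widely used as markers whatever the kind of injury. None of the genes is made only by astrocytes, since Vim is also made by vascular and meningeal cells, Cd44 and S1pr3 by other cells including leukocytes or vessels, and Lcn2 by neutrophils and inflamed endothelium.

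Bilateral whole hippocampi of male mice aged 10 to 14 weeks, named C56BL/6J in the study's methods, were taken 4 days after surgery, 1 library per mouse. In the SAH group (n = 4) a filament was pushed through the circle of Willis, the arterial ring at the base of the brain, and only mice whose regional cerebral blood flow then dropped were kept. In the Sham group (n = 3) the filament was advanced under the same isoflurane anaesthesia but pierced nothing, and the Naive group (n = 3) had no surgery. Ribosomal RNA was removed and strand-specific read pairs were counted per gene, with totals of 20099076 to 26866167 counts in SAH, 24080219 to 27254655 in Sham and 19743388 to 26551775 in Naive mice. Mice are numbered as in the labels, 1 to 4 for SAH, 5 to 7 for Sham and 8 to 10 for Naive, and Sham and Naive together (n = 6) are called control. In tissue libraries of this kind more cells of a type cannot be told apart from more RNA per cell.

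Levels are given in CPM, counts scaled to library size after TMM normalization. A gene was called higher or lower when its Benjamini-Hochberg adjusted p over all genes tested, from edgeR's quasi-likelihood test, was under 0.10. Of the 10 genes, 9 passed edgeR's filter on low counts, and Steap4, with 2 to 36 counts per mouse, did not.

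In SAH 7 of the genes, Gfap, Vim, Serpina3n, Lcn2, Osmr, Aspg and Hspb1, were higher than in control and 0 were lower, while among all 14993 genes tested 3.13% were called higher and 1.54% lower. DESeq2 called the same 7 genes, against 4.22% of all genes that it called higher. The fold changes of the 7 ran from 1.62 for Serpina3n to 13.4 for Lcn2. Cd44 and S1pr3 were not called by either tool. For SAH against control 17.0% of all genes had an unadjusted p under 0.05 in edgeR in either direction, the share behind such counts below. Leaving out SAH mouse 4 lowered the count to 4, with Serpina3n, Aspg and Hspb1 no longer called, and the share of all genes called higher to 1.48%. In 5 genes (Gfap, Vim, Lcn2, Osmr and Aspg) each of the 4 SAH mice lay above each of the 6 control mice, a separation that 2.83% of the genes tested showed, although Lcn2, which the filter would have removed had it been low in SAH too, had to differ to be among them. Over all 10 genes, in a fit without the filter, the median log2 fold change was 0.94, against −0.0012 over all genes.

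**Figure D1:**
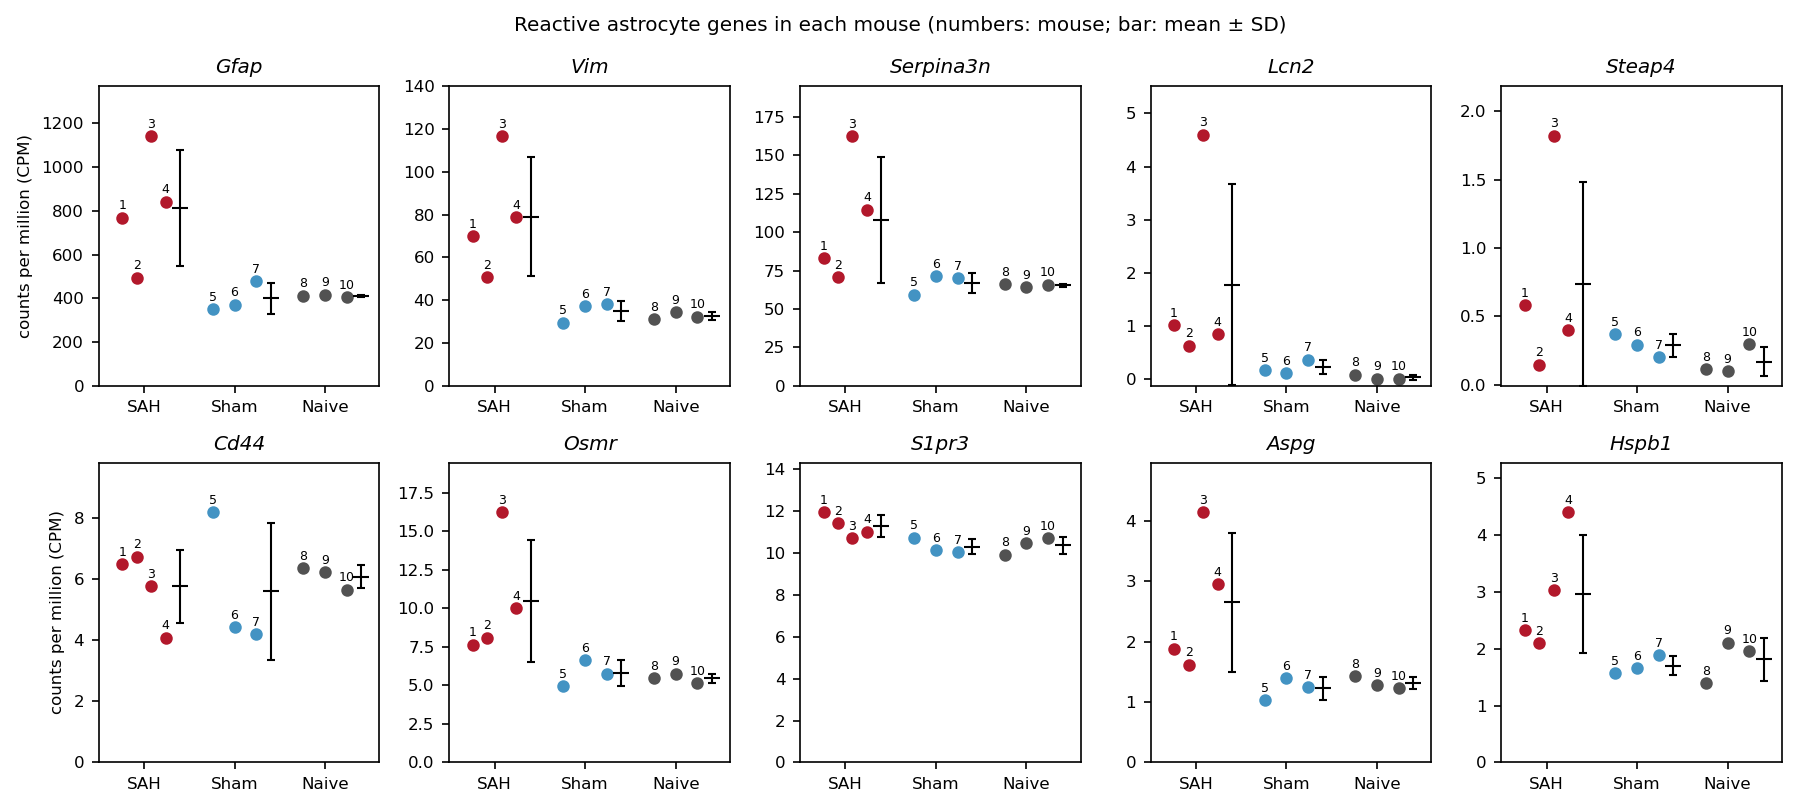
Level of each gene in CPM (linear vertical axes, a different range in each panel) for the SAH, Sham and Naive mice. Points are single mice with their numbers, and black marks give the group mean ± SD. SAH mouse 3 is the highest point in 7 of the 10 panels, and the points of Cd44 and S1pr3 lie at similar heights in the 3 groups.

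Gfap encodes the glial fibrillary acidic protein, the main intermediate filament of astrocytes (mm9 chr11:102748650-102758514, minus strand). Its level was 768, 495, 1142 and 843 CPM in SAH mice 1 to 4. Sham mice 5 to 7 had 349.6, 371 and 478 CPM, and Naive mice 8 to 10 had 412, 417 and 405 CPM. SAH mouse 2 was only just above the highest control, Sham mouse 7, whereas SAH mouse 3 was far above it. Control mice averaged 405 ± 44.0 CPM (SD, n = 6) and the SAH group 812 ± 266 CPM (SD, n = 4). On the log2 scale the group means differed by 1.00 with a standard error of 0.16 (edgeR, adjusted p = 0.00535).

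Vim encodes vimentin, the intermediate filament that copolymerises with GFAP in reactive cells (chr2:13495938-13504453, plus strand). SAH mice 1 to 4 had 69.8, 50.9, 116.7 and 78.8 CPM. The Sham mice had 29.5, 37.4 and 38.2 CPM and the Naive mice 31.1, 34.5 and 32.3 CPM. The groups did not overlap, and the mice of the SAH group stood in the same order as for Gfap. SAH exceeded control by 1.22 on the log2 scale, with a standard error of 0.17 (edgeR, adjusted p = 0.00272), which gave Vim the lowest adjusted p of the 10 genes. Partners of these filaments were not called. Of 10 genes for nestin, synemin, desmin, the neurofilaments, lamin A/C and other cytoskeletal proteins, 0 were called by edgeR or by DESeq2. Their median log2 fold change was 0.032, and 1 had an unadjusted p under 0.05, against 17.0% of all genes in either direction.

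Serpina3n encodes a secreted serine protease inhibitor of the acute-phase response (chr12:105644918-105652539, plus strand). Its levels in SAH mice 1 to 4 were 83.2, 70.6, 162.6 and 114.7 CPM. Control mice lay between 59.3 and 71.6 CPM, with both ends of this range in Sham mice 5 and 6. All SAH mice but 1 were above the controls, and SAH mouse 2 was inside their range. Its log2 fold change was 0.70 with a standard error of 0.17 (edgeR, adjusted p = 0.0475), a call that was lost when SAH mouse 4, Naive 8 or Naive 9 was absent. It is a member of a gene cluster with near-identical neighbours, between which reads that align to several places were discarded by the counting, which leaves its level uncertain. Of the other 10 genes of that cluster 1, Serpina3g, passed the filter, with a log2 fold change of 0.035 (edgeR, adjusted p = 0.953). In the fit without the filter, Serpina3i and Serpina3m, with at most 10 counts in a mouse, had log2 fold changes of 2.19 and 3.26 (edgeR, adjusted p = 0.184 and 0.297). Summed over the cluster without Serpina3n the level was 1.596 to 3.49 CPM in SAH and 1.40 to 2.44 CPM in control mice.

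Lcn2 encodes lipocalin 2, a secreted protein that binds bacterial siderophores and so keeps iron from microbes (chr2:32240157-32243259, minus strand). It was the scarcest of the 9 genes tested, with 21, 17, 91 and 21 counts in SAH mice 1 to 4. Sham mice had 4, 3 and 9 counts and Naive mice 2, 0 and 0. In CPM these were 1.02, 0.6253, 4.60 and 0.839 in SAH, 0.165, 0.110 and 0.362 in Sham, and 0.0752, 0 and 0 in Naive mice. The groups did not overlap, and SAH mouse 3 held 91 of the 150 counts of its group. A count of 0 allows up to 3 counts, which is 0.154 CPM in Naive mouse 9 and 0.127 CPM in Naive mouse 10. The log2 fold change from control was 3.74 with a standard error of 0.73 (edgeR, adjusted p = 0.015), and no other gene tested had a higher one. It was 2.68 in the absence of SAH mouse 3 and 4.43 in that of Sham mouse 7. Lcn2 passed the filter only through the mice in which it was high, so that of the genes this scarce only those that differ are tested. Its receptor genes and the genes of iron handling were largely uncalled: of 6 tested, only Hmox1, the haem-degrading enzyme, was higher (log2 fold change 0.79, edgeR, adjusted p = 0.0191).

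Osmr encodes the receptor subunit through which oncostatin M acts on astrocytes together with gp130 (chr15:6763577-6824313, minus strand). SAH mice 1 to 4 had 7.64, 8.09, 16.2 and 9.99 CPM. Control mice had 4.95 to 6.65 CPM, and the groups did not overlap. In the test its log2 fold change was 0.89 with a standard error of 0.18 (edgeR, adjusted p = 0.0184). The rest of its pathway, the cytokines and receptors that share gp130, was not called. Of 7 genes tested (4 more had too few counts) 0 passed by edgeR or DESeq2, and the median log2 fold change was 0.060. An unadjusted p under 0.05 was found for 2 of the 7, against 17.0% of all genes in either direction. Oncostatin M itself (Osm) did not pass the filter. Downstream, among 8 genes of JAK-STAT3 signalling and its feedback, Junb, an AP-1 transcription factor, fell by 0.70 on the log2 scale (edgeR, adjusted p = 0.00629) and 0 were higher. DESeq2 called 1 of these 8 higher, the feedback inhibitor Socs3, which had a log2 fold change of 1.04 in edgeR (adjusted p = 0.167), and 3 had an unadjusted p under 0.05 in that direction. With each mouse left out, 0 to 4 genes of this list were called higher. Without SAH mouse 2, in which the 10 genes were lowest on average, Stat3, Socs3 and Bcl3 were among those called higher. In that fit 4.55% of all genes were called higher. Bcl3, which the filter kept out over all 10 mice, had 1.78 in the fit without it, past the threshold (edgeR, adjusted p = 0.0935). The level of Socs3 was 4.497 CPM in SAH mouse 3, against a group mean of 2.13 CPM.

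Aspg encodes a 60 kDa lysophospholipase with asparaginase activity (chr12:113344894-113365784, plus strand). It shares its locus with the microRNA gene Mir3073a on the same strand and Mir3073b on the other. Its levels were 1.89, 1.62, 4.14 and 2.96 CPM in SAH mice 1 to 4 and 1.03 to 1.43 CPM in control mice, without overlap. Its log2 fold change was 1.04 with a standard error of 0.24 (edgeR, adjusted p = 0.0358), and 0.98 without SAH mouse 4, where it missed the threshold (adjusted p = 0.125).

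Hspb1 encodes HSP27, a small heat shock protein that binds unfolded proteins and actin filaments (chr5:136363789-136365433, plus strand). SAH mice 1 to 4 had 2.32, 2.10, 3.03 and 4.40 CPM. The Sham mice had 1.57, 1.65 and 1.89 CPM and the Naive mice 1.39, 2.11 and 1.95 CPM. It was the only one of the 10 genes to be highest in SAH mouse 4, and SAH mouse 2 was inside the range of the controls. The log2 fold change was 0.76 with a standard error of 0.21 (edgeR, adjusted p = 0.0736), and the call was lost in 7 of the 10 fits that left out 1 mouse. Among 8 further small heat shock genes, chaperones and their regulator, edgeR called Hspb8 higher (log2 fold change 0.53, adjusted p = 0.00709). DESeq2 called Hspb6 as well, which had 0.56 in edgeR (adjusted p = 0.138).

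Steap4 encodes a metalloreductase of the plasma membrane and endosomes (chr5:7960472-7982213, plus strand). It had 12, 4, 36 and 10 counts in SAH mice 1 to 4, 9, 8 and 5 in the Sham mice and 3, 2 and 7 in the Naive mice. SAH mouse 3 alone held 36 of the 62 counts of its group, and SAH mouse 2, at 0.147 CPM, was below 4 of the 6 control mice. In the fit without the filter its log2 fold change was 1.57 with a standard error of 0.56 (edgeR, adjusted p = 0.184), and it was 0.63 without SAH mouse 3. Only without SAH mouse 2 did it pass the threshold, at 1.94 (edgeR, adjusted p = 0.0405). At this depth no difference in Steap4 could be shown over the 10 mice. Of its 3 paralogs, Steap1, Steap2 and Steap3, 0 were called by edgeR or DESeq2 and 0 had an unadjusted p under 0.05.

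Cd44 encodes the receptor for hyaluronan and osteopontin (chr2:102651300-102741822, minus strand). Its levels were 6.48, 6.73, 5.76 and 4.08 CPM in SAH, 8.17, 4.41 and 4.18 CPM in Sham and 6.36, 6.22 and 5.65 CPM in Naive mice. The groups overlapped, with the highest value in Sham mouse 5 and the lowest in SAH mouse 4. The log2 fold change was −0.016 with a 95% interval of −0.42 to 0.39 (edgeR, adjusted p = 0.978), so that a rise as large as that of Gfap or Vim lay outside the interval. Among 11 genes for CD44 ligands and partners 2 were higher, Spp1, which encodes osteopontin (log2 fold change 1.47, edgeR, adjusted p = 0.00978), and Msn, which encodes the membrane linker moesin (0.40, adjusted p = 0.00803).

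S1pr3 encodes a receptor for sphingosine 1-phosphate (chr13:51503987-51518166, plus strand). It had the narrowest spread of the 10 genes, with 11.9, 11.4, 10.7 and 11.03 CPM in SAH mice 1 to 4 and 9.93 to 10.7 CPM in control mice. All SAH mice but 1 lay above the control mice by a small margin, and SAH mouse 3, the highest for most of the other genes, was the lowest of its group. The log2 fold change was 0.13 with a 95% interval of −0.012 to 0.26 (edgeR, adjusted p = 0.344). In the rest of the pathway, 9 genes, 0 were called higher by edgeR, with 2 at an unadjusted p under 0.05, and 1 by DESeq2, the sphingosine kinase gene Sphk1, whose log2 fold change in edgeR was 0.98 (adjusted p = 0.106). S1pr5, the receptor of oligodendrocytes and natural killer cells, fell by 0.57 on the log2 scale (edgeR, adjusted p = 0.00786).

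Compared per length of exon, in RPKM, the control means were 99.6 for Gfap, 31.8 for Serpina3n, 18.5 for Vim, 2.31 for S1pr3, 1.95 for Hspb1, 1.16 for Osmr, 1.03 for Cd44, 0.465 for Aspg, 0.139 for Lcn2 and 0.0732 for Steap4. The ranges of S1pr3 and Hspb1 overlapped over the 6 control mice, as did those of Osmr and Cd44, of Aspg and Lcn2, and of Lcn2 and Steap4, though within single mice S1pr3 was above Hspb1 and Aspg above Lcn2 in 6 of 6, Osmr above Cd44 in 5 of 6 and Lcn2 above Steap4 in 4 of 6. In SAH mice the same quantity was 199.4 for Gfap, 51.7 for Serpina3n, 43.1 for Vim, 3.28 for Hspb1, 2.52 for S1pr3, 2.17 for Osmr, 2.07 for Lcn2, 1.02 for Cd44, 0.970 for Aspg and 0.235 for Steap4. For Lcn2 that mean rests on SAH mouse 3, at 5.39, with 1.19, 0.733 and 0.984 in SAH mice 1, 2 and 4.

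Sham and Naive mice were compared with SAH separately to see whether surgery alone carried part of the difference. These comparisons share the SAH mice and come from 1 fit of the 3 groups. Against Sham mice 2 genes were higher, Gfap (log2 fold change 1.02, edgeR, adjusted p = 0.0682) and Vim (1.17, adjusted p = 0.0471), where 0.529% of all genes were. DESeq2 called 5, adding Aspg, Osmr and Lcn2, against 1.49% of all genes. Against Naive mice 4 genes were higher, Vim (1.27, edgeR, adjusted p = 0.0107), Lcn2 (5.66, adjusted p = 0.0313), Gfap (0.98, adjusted p = 0.0331) and Osmr (0.94, adjusted p = 0.0678), where 2.03% of all genes were. DESeq2 called 5 there, adding Aspg, against 3.09% of all genes. None of the genes was lower in either comparison, where 0.192% of all genes were lower against Sham and 0.965% against Naive. An unadjusted p under 0.05 was found for 7 genes in each, and for 9.69% and 14.8% of all genes in either direction. The number of genes called against Sham depended on single mice, from 0 without SAH mouse 4 or without any of the 3 Sham mice (where 0.12%, 0.0653%, 0.0393% and 0.0983% of all genes were called higher) to 5 without SAH mouse 2 (1.04%). It was 4 without SAH mouse 3 (1.1%) and 1 without Naive mouse 8, 9 or 10 (0.295%, 0.313% and 0.248%). Likewise 1 gene was called against Naive when Naive mouse 8, 9 or 10 was left out, where 0.57%, 0.705% and 1.15% of all genes were called higher. Against Sham, a fit with only the SAH and Sham mice called 0 of the 10 genes, where 0.0797% of all genes were called higher, and a fit with robust estimation also called 0, where 0.39% were.

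Between Sham and Naive mice 0 of the 10 genes were called by edgeR or by DESeq2, while over all genes 0.00661% were called higher by edgeR and 0.0132% by DESeq2. With edgeR 0 of the 10 had an unadjusted p under 0.05, as did 2.02% of all genes. Counts of 0 are therefore near the shares over all genes. The log2 fold change of Sham from Naive was −0.042 for Gfap (95% interval −0.51 to 0.42) and 0.11 for Vim (−0.39 to 0.60). For Serpina3n, Cd44, Osmr, S1pr3, Aspg and Hspb1 it lay between −0.12 and 0.091. Lcn2 was the exception in size, at 2.67 with a 95% interval of −1.08 to 6.42 (edgeR, adjusted p = 0.9998), resting on 16 counts in Sham and 2 in Naive mice. DESeq2 gave it 2.92 with an interval of 0.35 to 5.49 (unadjusted p = 0.026, adjusted p = 0.9999). With so few counts its fitted fold changes depend on the prior count, and the plain ratio of SAH to Naive, of 150 counts to 2 in libraries of the sizes given, was 56.7 with a 95% interval of 15.4 to 473 (exact binomial, counting error only). Without SAH mouse 3, with 59 counts to 2, it was 28.5 (7.55 to 241).

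**Figure D2:**
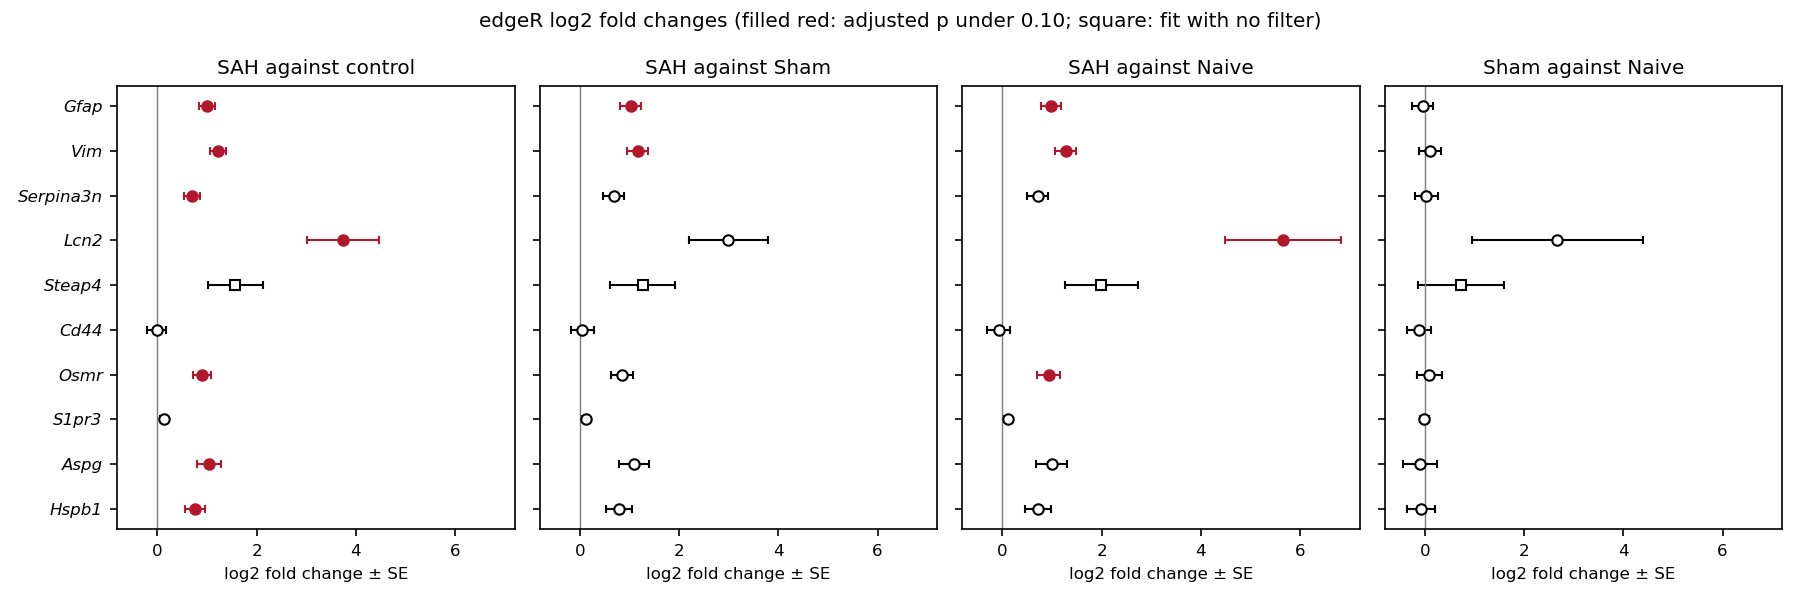
Log2 fold change of each gene (horizontal axis, bars ± SE) in the 4 comparisons. Filled red circles have an adjusted p under 0.10 (edgeR), open circles do not, and squares mark Steap4 from the fit without the filter. The estimates against Sham and against Naive differ by at most 0.1245 for all genes but Lcn2 and Steap4.

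Mice of the SAH group differed more from each other than control mice did for most of the genes, though not for Lcn2 or Cd44. The coefficient of variation within SAH was 32.8% for Gfap, 35.0% for Vim, 38.0% for Serpina3n, 37.7% for Osmr, 43.4% for Aspg and 35.0% for Hspb1. Within control it was 10.9%, 10.3%, 6.55%, 10.7%, 11.2% and 15.2% for the same genes in the same order. For Lcn2 it was 106.9% in SAH and 113.9% in control, for Cd44 20.8% and 25.1%, for S1pr3 4.72% and 3.32%, and for Steap4 100.9% and 47.4%. SAH mouse 3 was the highest of its group for 7 genes and SAH mouse 2 the lowest for 7. Gfap, Vim, Serpina3n and Aspg ranked the SAH mice identically, from mouse 3 through mice 4 and 1 down to mouse 2. Averaged over the 10 genes, the difference in log2 CPM from the control mean was 0.79, 0.42, 1.61 and 0.91 in SAH mice 1 to 4. The same average was 0.059, 0.061 and 0.15 in the Sham mice and −0.085, −0.12 and −0.068 in the Naive mice. Without the scarce Lcn2 and Steap4 it was 0.51, 0.31, 1.07 and 0.75 in SAH, −0.072, 0.0086 and 0.021 in Sham and −0.020, 0.065 and −0.0028 in Naive mice, and Sham and Naive mice then overlapped. Without SAH mouse 3 the ratio of SAH to control mean fell from 2.00 to 1.73 for Gfap, from 2.34 to 1.97 for Vim, from 1.63 to 1.35 for Serpina3n, from 1.87 to 1.53 for Osmr, from 2.09 to 1.70 for Aspg from 14.9 to 6.96 for Lcn2 and from 3.20 to 1.63 for Steap4. For Hspb1 it was 1.68 and then 1.67, for S1pr3 1.09 and 1.11, and for Cd44 0.988 both times.

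**Figure D3:**
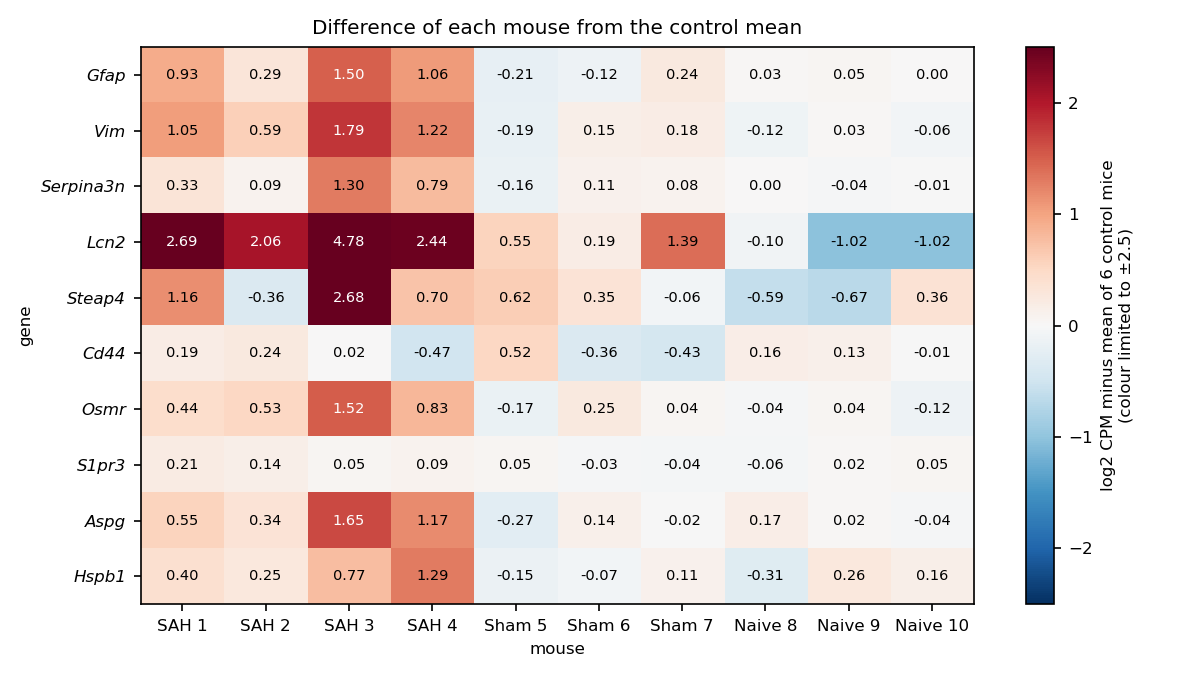
Difference of each mouse (columns) from the mean of the 6 control mice in log2 CPM with a prior count of 2, for each gene (rows). Red is higher and blue lower, with the colour limited to ±2.5 and the value printed in each cell. The column of SAH mouse 3 is the darkest, reaching 4.78 for Lcn2, and SAH mouse 2 is the palest of the SAH columns, with 0.29 for Gfap and −0.36 for Steap4.

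Across all genes tested, the pattern most like that of Gfap, by the root mean square difference over the 10 mice of log2 CPM from the control mean, was that of Ms4a6d, a membrane protein gene of myeloid cells, at 0.139. Next came Hmox1 at 0.173, Vim at 0.178, Aspg at 0.185 and Apod, which encodes apolipoprotein D, at 0.185. Osmr ranked 12 and Serpina3n 16 in this order, Hspb1 ranked 82, and S1pr3, Cd44 and Lcn2 ranked 2991, 12716 and 14984 of the 14993 genes. For Lcn2 the nearest genes were farther away. They were AI607873 at 0.907, Kcnj13, a potassium channel gene of the choroid plexus, at 0.964, Ly9, a lymphocyte receptor gene, at 1.01, Plin4, which encodes the lipid droplet protein perilipin 4, at 1.05, and the interferon-induced Ifi27l2a at 1.08. These distances are a description over 10 shared libraries.

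The 10 genes belong to, or were set beside, lists of reactive astrocyte genes that distinguish kinds of injury. The rest of the pan-reactive list, genes that rise after both ischaemia and systemic inflammation, was Cp, Cxcl10 and Timp1. Cp, which encodes the ferroxidase ceruloplasmin, was higher (log2 fold change 0.86, edgeR, adjusted p = 0.000959), as was the chemokine gene Cxcl10 (1.36, adjusted p = 0.0625). Cxcl10 missed the threshold without SAH mouse 1 or Naive mouse 9 or 10. It did not pass the filter without SAH mouse 2, Sham mouse 6 or 7, or Naive mouse 8. Cxcl10 had 10 to 22 counts in SAH and 2 to 11 in control mice. Like Lcn2, it would have been removed by the filter had it been as low in SAH as in control. Timp1, an inhibitor of matrix proteases, was kept out by the filter and had 3.17 in the fit without it (edgeR, adjusted p = 0.0251), with 3.99 CPM in SAH mouse 3 against a mean of 1.39 CPM over the SAH group. Of the genes known as A1, described after systemic inflammation, 12 were tested and 10 were higher, with a median log2 fold change of 0.81 (6 were higher without SAH mouse 4). Examples are the complement inhibitor gene Serping1 (1.17) and the elastic fibre gene Fbln5 (1.12), both at an adjusted p of 0.000328 from edgeR, the glycosyltransferase gene Ggta1 (0.65, adjusted p = 0.00329) and the MHC class I gene H2-D1 (1.38, adjusted p = 0.00375). Of the genes known as A2, described after ischaemia, 10 were tested and 0 were called by edgeR, with a median of 0.25. DESeq2 called 1 of them, Sphk1, which is in the sphingosine list too. An unadjusted p under 0.05 with edgeR was found for 2, against 17.0% of all genes in either direction. The filter kept out 2 more A2 genes, Slc10a6 and Tgm1, with at most 14 counts in a mouse. They had 2.53 and 1.57 in the fit without it (edgeR, adjusted p = 0.196 and 0.297). The A1 list holds complement and interferon-responsive genes that microglia and vascular cells express too, and none of these lists was measured in sorted cells here.

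Genes of the astrocyte's resting functions had smaller fold changes than the 7 genes called. The 22 homeostatic astrocyte genes, which include glutamate transporters, the water channel of the endfeet and gap junction proteins, all passed the filter. Their median log2 fold change was 0.060, against −0.0024 over all genes tested, and 0 were lower by edgeR or DESeq2, with 0 lower at an unadjusted p under 0.05. Aldh1l1, a folate enzyme gene, was called higher by DESeq2 but not by edgeR (log2 fold change 0.26, adjusted p = 0.126 in edgeR). Their summed level was 13680, 12760, 15410 and 14000 CPM in SAH mice 1 to 4 and 12870 to 13750 CPM in control mice, so that SAH mouse 3 was highest and SAH mouse 2 lowest here too, over a much smaller range than for Gfap.

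**Figure D4:**
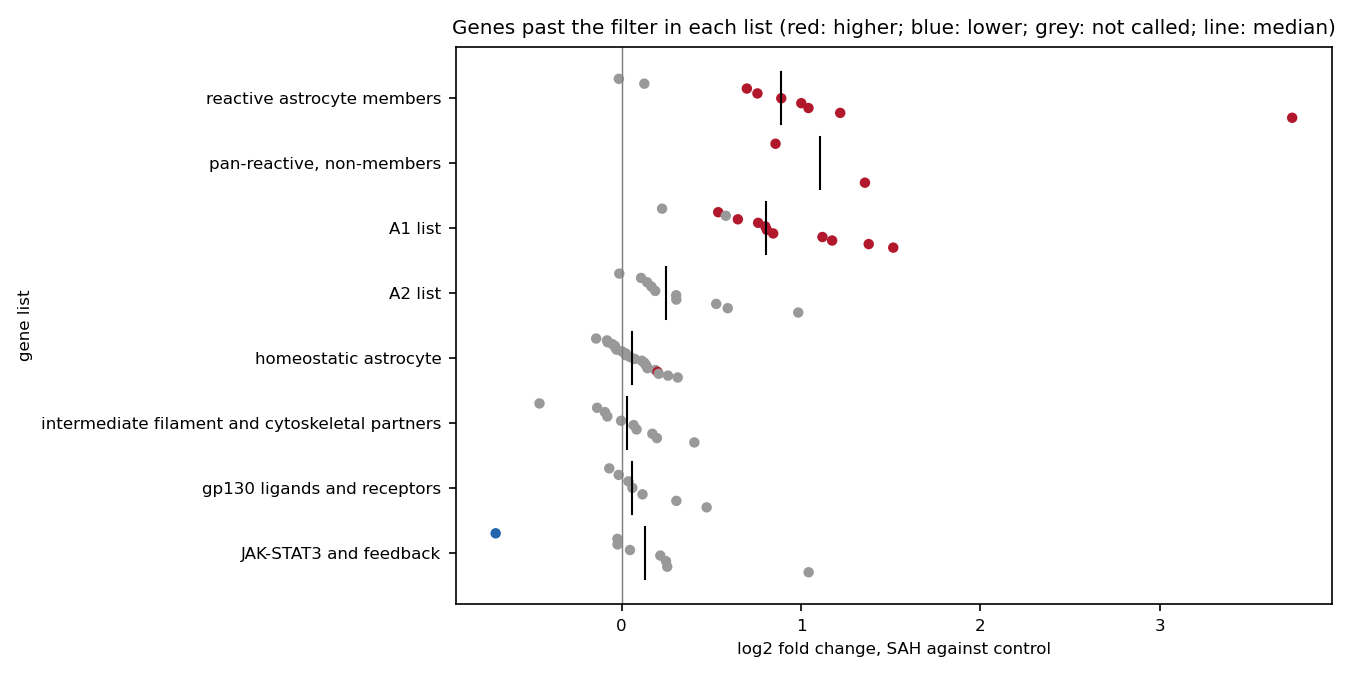
Log2 fold change of SAH against control (horizontal axis) for each gene past the filter in 8 lists. Points are genes, red when called higher, blue when called lower and grey when not called, and the black line is the median of the list. The reactive, pan-reactive and A1 genes lie mostly to the right of 0, with medians of 0.89, 1.11 and 0.81, and the homeostatic, filament, gp130 and JAK-STAT3 genes have medians between 0.032 and 0.13. The pan-reactive median rests on 2 genes, Cp and Cxcl10.

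Signals known to act on astrocytes were read in the same way. Among 8 tested genes for the cytokines and receptors described as inducers of the A1 state, 5 were higher. The complement genes C1qb, C1qc and C1qa had log2 fold changes of 0.48, 0.48 and 0.52 (edgeR, adjusted p = 0.00961, 0.010 and 0.0117), and the TNF receptor gene Tnfrsf1a had 0.39 (adjusted p = 0.0643). The receptor subunit gene Il1rap fell by 0.20 on the log2 scale (edgeR, adjusted p = 0.0571). Among 13 genes of scar formation and growth control 3 were higher, Smad3, Tgfbr2 and Thbs2, with log2 fold changes of 0.29, 0.41 and 0.43 (edgeR, adjusted p = 0.0125, 0.0326 and 0.0718), and 1 of them without SAH mouse 4. Of the A1-inducing genes 3 were higher without SAH mouse 3 or 4, Sham mouse 6 or any of the Naive mice.

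Markers of other cell types also moved between the groups, and their part in the differences of the 10 genes was not tested. Higher in SAH were 4 of 8 endothelial, 4 of 8 mural, 6 of 8 meningeal fibroblast, 4 of 5 border macrophage or monocyte and 2 of 8 microglia markers, and all 8 oligodendrocyte markers were lower. With 1 mouse left out these counts were 1 to 7 for endothelial (7 without SAH mouse 1, 1 without SAH mouse 4 and 2 without Naive mouse 8 or 10 or any Sham mouse), 2 to 5 for macrophage or monocyte (2 without Naive mouse 8 or 9) and 0 to 2 for microglia markers (0 without SAH mouse 4 and 1 without Naive mouse 8). The share of all genes called higher moved in these fits too, from 1.48% without SAH mouse 4 to 4.55% without SAH mouse 2. It was 3.94% without SAH mouse 1 and 1.82% without Naive mouse 8. For neurons 0 of 8 and for ependyma 0 of 8 markers were called by edgeR or DESeq2, with 0 and 1 at an unadjusted p under 0.05. Summed endothelial markers were 133.7, 167.6, 204.2 and 261.6 CPM in SAH mice 1 to 4 and 118.6 to 166.5 CPM in control mice. SAH mouse 4, where Hspb1 was highest, led in this sum, but Hspb1 was higher in SAH mouse 1 than in SAH mouse 2. The summed mural, microglia and T and NK cell markers were highest in SAH mouse 4 too, while the meningeal fibroblast and macrophage or monocyte sums were not. Besides inflamed endothelium, neutrophils are another source of Lcn2. Neutrophil markers summed to 0.441 to 1.26 CPM in SAH and 0.0752 to 1.21 CPM in control mice, and none of the 7 present passed the filter. Of these, Mmp8 and Camp were at 0 in every SAH mouse, while S100a9 averaged 0.413 CPM in SAH and 0.196 CPM in control and S100a8 0.292 and 0.185 CPM, with at most 12 counts in a mouse. None of the 7 T and NK cell markers passed either, and their sum was 0.253 to 0.959 CPM in SAH and 0.331 to 0.489 CPM in control mice. Of the 5 globin and red cell genes 4, the globin genes, were listed at 0 in every mouse, so that they could not show a difference. Why they were at 0 was not tested. The remaining gene, Alas2, had 22 to 100 counts in SAH and 31 to 70 in control mice. It was not called (log2 fold change 0.36, edgeR, adjusted p = 0.546).

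Choroid plexus, which adjoins the hippocampus, was present to an uneven extent in the libraries. The sum of its 8 markers was 105.8, 219, 1234 and 871 CPM in SAH mice 1 to 4, 215, 60.0 and 836 CPM in the Sham mice and 47.5 to 70.3 CPM in the Naive mice. No marker was called by edgeR or DESeq2, 2 had an unadjusted p under 0.05, and their median log2 fold change was 1.16, but in the fit without Sham mouse 7 all 8 were called higher. The mice with most choroid plexus RNA in the SAH group, 3 and 4, were also the 2 highest SAH mice for 6 of the 10 genes. Sham mouse 7, with almost as much of it as SAH mouse 4, was the highest control for Gfap, Vim and Lcn2, and lay below every SAH mouse for these genes. In a fit without these 3 mice, which left 2 SAH and 5 control mice, Gfap, Vim, Lcn2 and Osmr were called, where 1.7% of all genes were called higher, with log2 fold changes of 0.69, 0.87, 3.35 and 0.50 (edgeR, adjusted p = 0.00501, 0.000437, 0.00646 and 0.0721). Serpina3n, Aspg and Hspb1 were not called, at 0.23, 0.45 and 0.36 (adjusted p = 0.186, 0.4995 and 0.596).

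**Figure D5:**
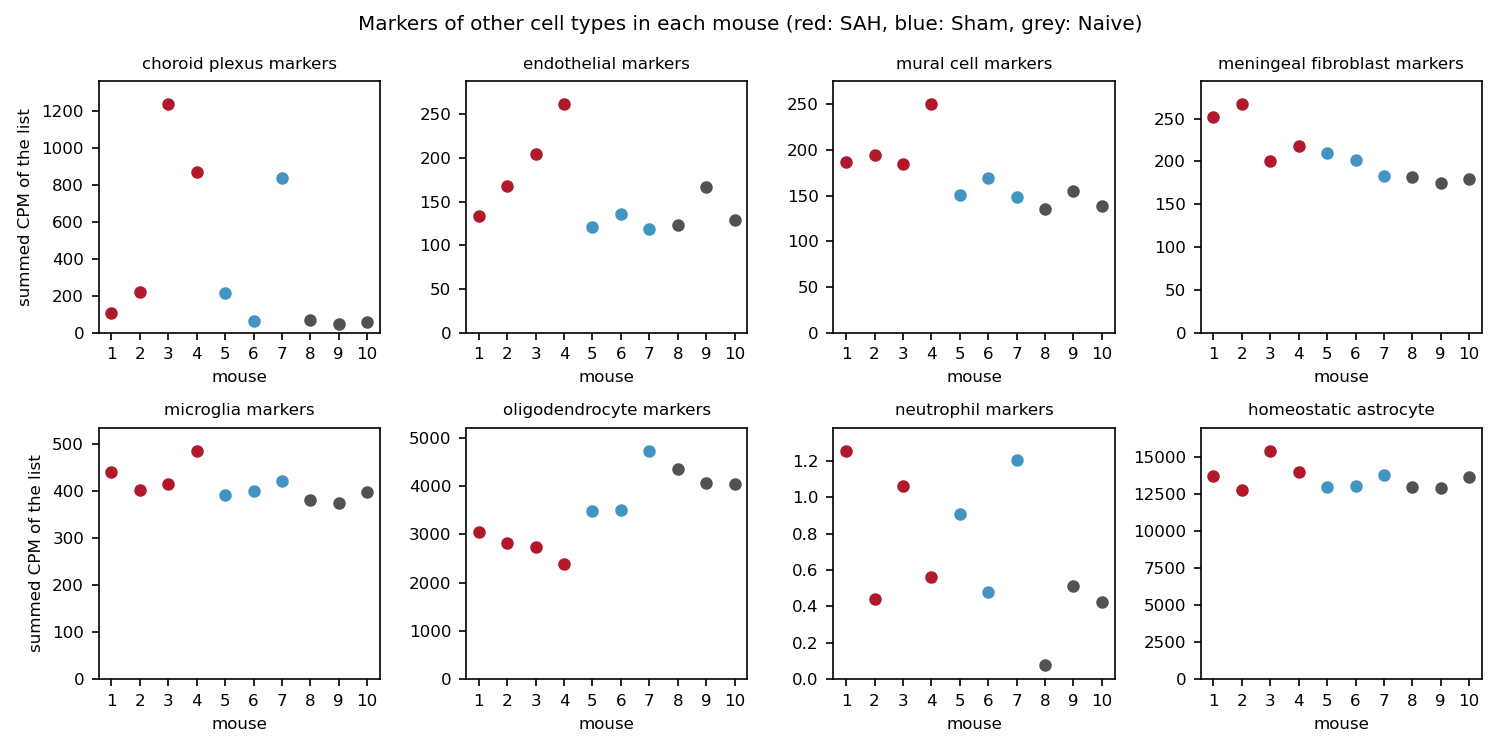
Summed CPM (vertical axes from 0, a different range in each panel) of markers of other cell types and of homeostatic astrocyte genes in mice 1 to 10. Red points are SAH, blue Sham and grey Naive mice. Choroid plexus markers are highest in SAH mice 3 and 4 and Sham mouse 7, between 836 and 1234 CPM, and oligodendrocyte markers are lower in every SAH mouse than in every control mouse.

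The promoters of the 10 genes were searched for 3 short motifs of factors that act in reactive astrocytes, in RefSeq windows of the build GRCm38.p6 from 250 bases before to 50 after the start site, which were found for all 10 genes. TTCNNNGAA, bound by STAT factors, was found for Gfap and Steap4 and in 8.30% of the 32851 promoters of the table. TGANTCA, bound by AP-1, was found for Osmr alone and in 7.81% of promoters. GAANNTTC or TTCNNGAA, paired repeats of the heat shock element, was found for Hspb1 and Steap4 and in 15.1% of promoters. Each motif was read on both strands, and no match overlapped another. The 4 promoters with a match are shown from 240 bases before to 10 after the start site, 5′ to 3′ on the strand of the gene, with the matches in capitals.
Gfap, chr11:102897191-102897440, minus strand: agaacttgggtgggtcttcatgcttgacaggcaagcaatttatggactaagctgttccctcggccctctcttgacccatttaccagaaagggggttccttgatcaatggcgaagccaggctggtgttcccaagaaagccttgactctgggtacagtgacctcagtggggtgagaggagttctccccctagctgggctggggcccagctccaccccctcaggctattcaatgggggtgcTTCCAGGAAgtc
Osmr, chr15:6874304-6874553, minus strand: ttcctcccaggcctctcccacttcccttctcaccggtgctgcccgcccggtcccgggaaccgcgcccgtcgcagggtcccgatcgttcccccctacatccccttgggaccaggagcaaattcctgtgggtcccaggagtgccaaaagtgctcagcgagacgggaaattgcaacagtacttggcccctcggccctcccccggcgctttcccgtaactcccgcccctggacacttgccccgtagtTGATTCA
Hspb1, chr5:135887679-135887928, plus strand: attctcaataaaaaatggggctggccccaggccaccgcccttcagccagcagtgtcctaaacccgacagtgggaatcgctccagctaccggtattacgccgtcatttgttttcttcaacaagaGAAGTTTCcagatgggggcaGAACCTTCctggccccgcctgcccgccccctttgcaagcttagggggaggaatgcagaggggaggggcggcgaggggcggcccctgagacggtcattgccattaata
Steap4, chr5:7960232-7960481, plus strand: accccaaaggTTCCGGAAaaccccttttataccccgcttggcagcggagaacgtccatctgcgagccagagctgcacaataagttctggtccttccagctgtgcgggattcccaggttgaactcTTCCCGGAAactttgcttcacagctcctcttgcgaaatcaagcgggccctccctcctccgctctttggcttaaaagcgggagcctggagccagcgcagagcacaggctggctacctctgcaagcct
The match of Gfap spans the start site, beginning 2 bases before it. The pair in Hspb1 begins 117 and 97 bases before the start, and Steap4 has its STAT match 116 and its heat shock match 230 bases before. Among the 7 genes called higher, Vim, Serpina3n, Lcn2 and Aspg had none of the 3 motifs in this window, as was true of Cd44 and S1pr3. A match here is a run of letters and not a measured binding site.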

How the data were processed

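RNA-seq of 10 mice was analysed. The authors aligned read pairs with STAR to mm9 and counted them with featureCounts 1.6.2 on UCSC exons by gene name, strand-aware, leaving out reads of several places or genes. The deposited values are these raw counts, with exon length per gene. From them edgeR 4.0.16 (R 4.3.3) was run with TMM and filterByExpr (minimum count 10, minimum total 15) over all genes. Standard errors are the log2 fold change divided by the square root of F, and edgeR intervals use the t quantile at the degrees of freedom of the test. RPKM uses the deposited exon length. No 2 libraries were alike enough to be duplicates, and the p-values measure the spread between mice. On simulated counts with 200 genes changed by 1 on the log2 scale, 99.5% were recovered and 8.72% of calls were false. The changed genes were drawn from those with higher counts, which leaves out Lcn2, Steap4 and Aspg. SAH and control were given the same spread per gene, unlike most of the 10 genes. The share recovered therefore does not apply to scarce genes or to genes that vary more in SAH. DESeq2 1.42.0 was an alternative, as were other scalings, filters, thresholds and each mouse left out.

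The members and lists were chosen with earlier results of these data known. List genes named were those past the threshold, at most 4 per list and direction, any pan-reactive gene, and the 5 genes nearest to Gfap and to Lcn2. Serpina3g, Serpina3i, Serpina3m, Osm, Sphk1, Slc10a6, Tgm1, Socs3, Stat3, Bcl3, Hspb6, S100a8, S100a9, Alas2 and Aldh1l1 were named after their values were seen. Calls of single homeostatic genes are given in part, and 1 gene past the threshold is not reported here.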

Additional observations from a re-analysis of the deposited data

Results flagged for a closer look

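Of 20 groups examined, the 10 genes in the SAH mice and in the pooled control mice, 1 held a mouse far from the rest of its group. Lcn2 was at 4.60 CPM in SAH mouse 3, while the next highest SAH mouse had 1.02 CPM, and this gap was 0.902 of the group's range, above Dixon's 95% critical value for 4 mice. Chance alone gives such a gap in about 1 of 20 groups.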

How the results depend on the processing

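The number of the 10 genes higher in SAH than in control was 7, and 4 to 7 with each mouse left out (4 without SAH mouse 4). It was also 4 without SAH mice 3 and 4 and Sham mouse 7, an alternative chosen after seeing the data, in which Serpina3n fell to 0.23, Aspg to 0.45 and Hspb1 to 0.36 on the log2 scale, none past the threshold, and Cd44 turned to 0.11. Against Sham 2 genes were called, 5 with DESeq2, 0 with only the mice compared (0.0797% of all genes higher), 0 with a robust fit (0.39%), 1 at an adjusted p under 0.05, and 0 to 5 with each mouse left out. Against Naive 4 were called, and 1 to 6 with each mouse left out (1 without any of the 3 Naive mice). Why these counts moved was not tested.

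With each mouse left out, the log2 fold changes of Gfap (0.79 to 1.18), Vim (0.97 to 1.38), Lcn2 (2.68 to 4.43) and Osmr (0.61 to 1.01) kept their calls in all 10 fits. Serpina3n lay between 0.43 and 0.86 and was no longer called when SAH mouse 4, Naive 8 or Naive 9 was absent, nor with a robust fit, at 0.70 (edgeR, adjusted p = 0.124). Aspg lay between 0.76 and 1.23 and lost its call without SAH mouse 4. Hspb1 lay between 0.49 and 0.90, lost its call in 7 of 10 fits and was not past an adjusted p of 0.05, at 0.76. Cd44 lay between −0.11 and 0.12, changing sign in 4 fits (0.012, 0.0026, 0.12 and 0.11 without Naive mouse 8, Naive mouse 9, SAH mouse 4 and Sham mouse 5). Steap4, fitted without the filter, lay between 0.63 and 1.94. A minimum of 10 counts in every mouse leaves Lcn2 untested.

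With a prior count of 0.5 in place of 2, the average difference over the 10 genes was 0.13, 0.11 and 0.23 in the Sham mice and −0.24 and −0.16 in Naive mice 9 and 10, moves larger than the spread within their groups. The A1 genes higher numbered 6 to 11 with each mouse left out (6 without SAH mouse 4) and the A2 genes 0 to 1. Over all genes DESeq2 called 632 higher and 398 lower where edgeR called 470 and 231. Depth limits Lcn2 and Steap4, with at most 91 and 36 counts in a mouse. No paired analysis was possible because each mouse has a number of its own.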
